A study of Homo sapiens with 12 samples.

Results

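The genes described here are those that the SREBP transcription factors drive to make cholesterol and fatty acids, together with the proteins that switch SREBP on and off. They were chosen by name: 31 genes were listed, and a gene was measured where a row of the deposited table carried its symbol and no other. That gave 26 of the 31 genes, each with 1 row, out of 22011 rows in all. SREBF2, ACAT2, CYP51A1 and HSD17B7 shared their rows with other symbols and FDFT1 is not analysed here. RNA came from HEK293, a widely used human line of embryonic kidney origin, and was measured on 12 single-colour arrays in 4 groups of 3 biological replicates. All groups were transfected with Lipofectamine 2000 24 hours after plating, harvested 48 hours later and sorted for 20 minutes for living cells with GFP, so every group, the control included, carries a GFP plasmid. The control held nuclear GFP alone in pcDNA5/TO. Full-length MED12, with an engineered Kozak sequence and an N-terminal nuclear GFP tag, and the same construct without the PQL and Opa domains (the PQL/Opa-deleted construct) were in the same vector. The knockdown group received shRNA 5, a single hairpin against MED12 run from the H1 promoter in peGFP-C1, another vector than that of its control, and no group labelled as a control hairpin is used here. Mediator passes signals from transcription factors to RNA polymerase II, and MED12 is part of its kinase module.

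SREBP1 and SREBP2 (from SREBF1 and SREBF2) are made as membrane proteins of the endoplasmic reticulum. When sterols run low, the escort protein SCAP carries them to the Golgi, where proteases free the part that enters the nucleus and binds the promoters of lipid genes. When sterols are plentiful, INSIG proteins hold SCAP back. Because the pathway is a feedback loop, its targets, INSIG1 among them, are commonly read as a gauge of SREBP activity, although no sterol, lipid or protein was measured here. Mediator has known ties to it: the subunit MED15 binds the activation domain of SREBP, and the kinase CDK8, which MED12 activates, can phosphorylate nuclear SREBP1 and so mark it for breakdown. The comparisons ask whether the RNA of this pathway differed when MED12 was raised, raised in a shortened form, or targeted by RNA interference.

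The deposited values are log2 intensities from the RMA method, 1 per row and array. Array medians lay between 3.39 and 3.51 and the standard deviation of an array's values between 1.34 and 1.60, lowest in shRNA replicate 1, GFP replicate 1 and PQL/Opa deletion replicate 1. MED12 itself, the check of the labels, averaged 4.41 with GFP, 10.68 with the full-length and 8.92 with the PQL/Opa-deleted construct (limma, adjusted p = 3.67e-08 and 1.54e-06). It averaged 3.67 with the shRNA, with all 3 arrays below every GFP array and 0.596 times the GFP level. The log2 fold change was -0.75 (95% interval -1.18 to -0.31; limma, unadjusted p = 0.00308). It did not pass the threshold over all rows (limma, adjusted p = 0.730). A direction given for the shRNA group is therefore taken from its label, with this unadjusted difference beside it. Of 7 HEK293 markers 4 lay above the 75th percentile of row means, and 0 of 4 measured liver, 3 fat, 5 adrenal and 5 blood cell markers did. The mean of each of these other lists stayed at or below 3.56 in every array, whereas that of the HEK293 list lay between 4.65 and 5.06.

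None of the 26 genes passed the test in any comparison. With arrays weighted by quality, an alternative, 5 passed with the shRNA (SREBF1, HMGCS1, SQLE, DHCR7 and FASN), in a fit where 25.9% of all rows passed. The test was limma's linear model over all rows and 12 arrays, with p-values adjusted over the 22011 rows by the Benjamini-Hochberg method and a threshold of 0.05. Against GFP, 0 of 26 passed with full-length MED12 (0.0136% of all rows did), 0 with the PQL/Opa-deleted construct (0.00454%) and 0 with the shRNA (0.0681%). Between the constructs 0 passed (0.00454%), as did 0 in the F test among the 4 groups (0.0863%). At an unadjusted p under 0.05 there were 0, 1 and 1 members against GFP, where all rows gave 2.8%, 3.46% and 5.04%, 0 between the constructs (1.9%) and 0 in the F test (4.62%). Groups did not overlap for 2 members with full-length MED12 (7.72% of rows), 1 with the PQL/Opa-deleted construct (7.92%), 2 with the shRNA (8.56%) and 1 between the constructs (6.91%). With 26 genes, 1 or 2 of them is a share of the same order as that of all rows. In these bulk samples, fewer cells that make an RNA and less of it per cell cannot be told apart.

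The measured differences were small and the intervals limit how large they could be. With full-length MED12, 14 of 26 genes lay above GFP and the median log2 fold change was 0.01, beside -0.01 over all rows. With the PQL/Opa-deleted construct 18 of 26 lay above GFP, with a median of 0.05 beside -0.01. In the shRNA arrays 10 of 26 lay above GFP, with a median of -0.07 beside 0.02; without shRNA replicate 1 that median was 0.08. The 95% confidence interval of the log2 fold change stayed within 1 on either side of 0, that is within a doubling or halving, for 24 of 26 genes with full-length MED12, 25 with the PQL/Opa-deleted construct and 24 with the shRNA. The exceptions were FDPS in all 3 comparisons and SCD in the first and last, the genes that varied most between replicates. These intervals are not adjusted for the number of genes, and smaller changes are not shown to be absent. The 3 comparisons share the GFP arrays, so a high or low GFP array moves all of them together.

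**Figure D1:**
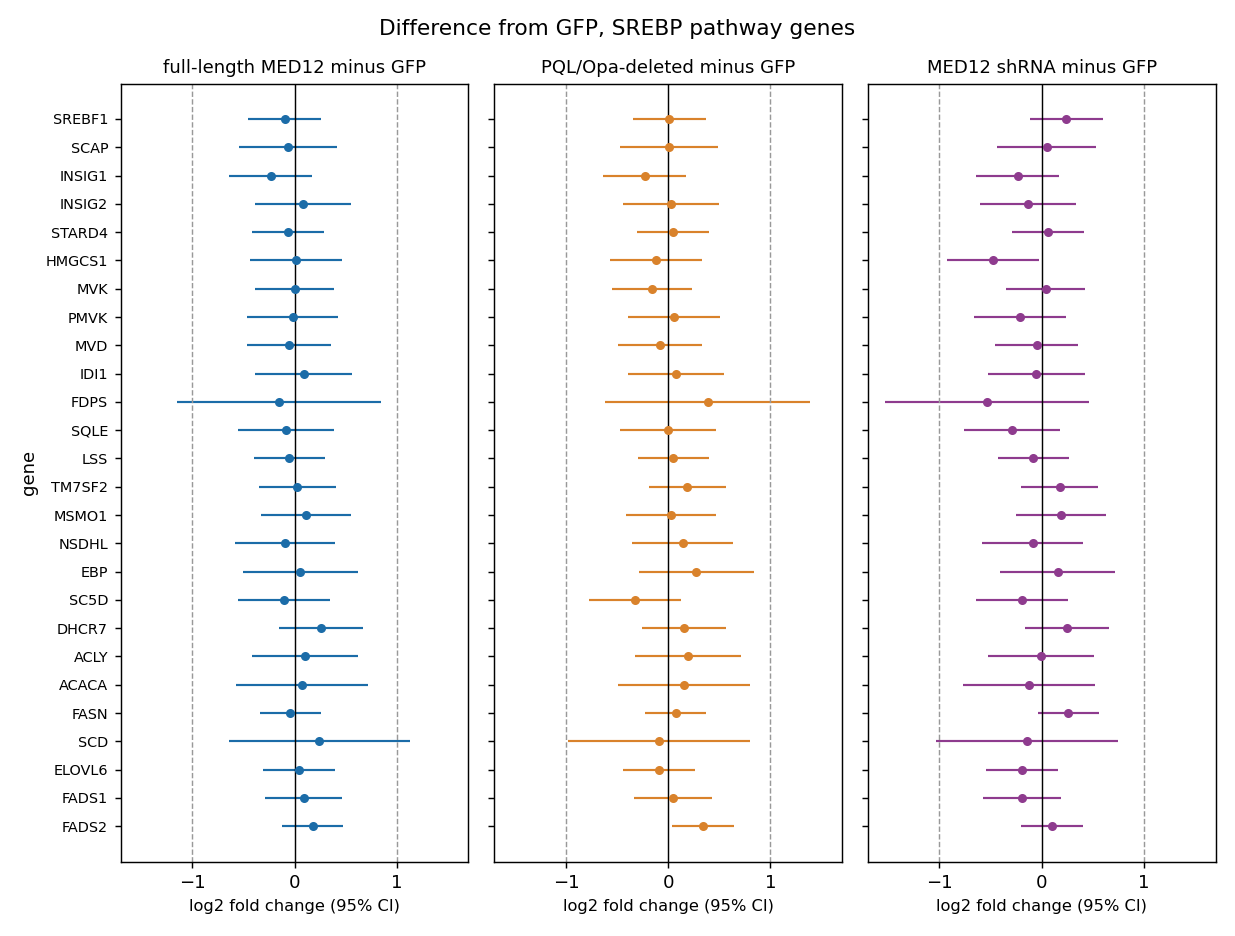
Log2 fold change (dot) and 95% confidence interval (line) of each of the 26 measured genes, in 3 panels for full-length MED12, PQL/Opa-deleted MED12 and MED12 shRNA, each minus GFP, from limma's fit of 12 arrays. Dashed lines mark -1 and 1. Nearly all lines cross 0 and stay between the dashed lines, and the longest belong to FDPS and SCD.

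The promoters of the listed genes were searched for the motifs of SREBP and its partners, as a description with no test. RefSeq start sites (GRCh38.p14, 250 bases before to 50 after each start) were found for 27 of the 31 listed genes, in 37 windows. SREBP binds DNA weakly alone and works beside NF-Y, which binds the letters CCAAT, and Sp1, which binds GGGCGG. Searched on both strands, CCAAT stood in 24 of 37 windows (64.9%), beside 34.6% of all 35116 windows, and GGGCGG in 33 (89.2%), beside 45.0%. A sterol response element written as TCACNCCAC stood in 1 window, that of SREBF2, beside 1.13% of all windows, and its core CACNCCAC, which every match of the longer motif also holds, in 7 (18.9%), beside 5.87%. The E-box TCACGTGA, which SREBP1 can also bind, stood in 1 window, that of INSIG1, beside 0.980%. Base composition was not matched between these windows and the rest, and a match is a run of letters, not a shown binding site.

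The 250 bases before the first listed start of 3 genes are shown, because INSIG1 is the pathway's feedback gauge and HMGCS1 and FADS2 are the genes with an unadjusted p under 0.05 below. Capitals mark matches to these motifs on either strand. HMGCS1 (chr5:43313413-43313662, minus strand) holds 2 CCAAT boxes, at -155 and -100 from the start, and 2 GGGCGG boxes. INSIG1 (chr7:155297628-155297877, plus strand) holds 1 CCAAT box, 1 match to the core element at -208 and the E-box at -56. It also holds GGGCGG boxes at -233, -126, -121, -93 and -80. The stretch of FADS2 (chr11:61815953-61816202, plus strand) holds no match, which says only that these letters are not in it. The other of the 2 FADS2 windows, at another start, holds 1 CCAAT and 1 GGGCGG.
HMGCS1: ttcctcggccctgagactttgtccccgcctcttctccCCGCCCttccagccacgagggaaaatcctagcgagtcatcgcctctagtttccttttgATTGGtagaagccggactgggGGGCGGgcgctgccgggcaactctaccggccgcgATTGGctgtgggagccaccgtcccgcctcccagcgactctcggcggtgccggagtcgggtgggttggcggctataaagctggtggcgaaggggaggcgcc
INSIG1: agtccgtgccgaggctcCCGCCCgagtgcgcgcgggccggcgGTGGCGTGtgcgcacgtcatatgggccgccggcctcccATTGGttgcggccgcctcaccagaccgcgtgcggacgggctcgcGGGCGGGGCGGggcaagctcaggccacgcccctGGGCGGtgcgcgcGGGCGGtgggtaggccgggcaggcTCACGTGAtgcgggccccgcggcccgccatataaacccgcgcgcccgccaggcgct
FADS2: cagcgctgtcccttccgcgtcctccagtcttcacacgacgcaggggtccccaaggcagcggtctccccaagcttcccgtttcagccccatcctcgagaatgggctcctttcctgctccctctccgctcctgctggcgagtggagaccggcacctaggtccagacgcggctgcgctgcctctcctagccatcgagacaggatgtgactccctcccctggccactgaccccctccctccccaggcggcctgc

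None of the 4 measured regulators passed the test in any comparison. SREBF1 encodes SREBP1. Its log2 values were 4.06, 3.79 and 3.89 in GFP replicates 1 to 3, 4.06, 3.67 and 3.72 with full-length MED12, 4.09, 3.86 and 3.83 with the PQL/Opa-deleted construct and 4.27, 3.99 and 4.20 with the shRNA. The shRNA arrays held the highest value and overlapped the GFP arrays. Their mean exceeded that of GFP by 0.24 ± 0.16 (SE) on the log2 scale (limma, adjusted p = 1.00), and by 0.37 with array weights (limma, adjusted p = 0.0202). For SCAP, the escort, the values were 4.45, 4.13 and 3.80 with GFP, 4.11, 4.12 and 3.94 with full-length MED12, 4.47, 4.05 and 3.87 with the PQL/Opa-deleted construct and 4.50, 4.0 and 4.02 with the shRNA. In every group but full-length MED12 the first replicate was the highest, and its fold changes against GFP lay between -0.06 and 0.05.

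INSIG1, which retains SCAP and is itself a target of SREBP, read 3.46, 3.89 and 4.0 with GFP, 3.34, 3.78 and 3.54 with full-length MED12, 3.56, 3.47 and 3.64 with the PQL/Opa-deleted construct and 3.42, 3.47 and 3.77 with the shRNA. The log2 fold change was -0.23 in all 3 comparisons (SE 0.18 each; limma, adjusted p = 1.00 each). In each it was -0.39 without GFP replicate 1, and without GFP replicate 3 it lay between -0.13 and -0.12. GFP replicates 2 and 3 were the highest values of the 12, while GFP replicate 1 lay among the other groups. INSIG2, the second retention protein, which SREBP does not drive in the same way, read 3.97, 3.55 and 3.52 with GFP, 3.69, 3.95 and 3.66 with full-length MED12, 4.11, 3.43 and 3.58 with the PQL/Opa-deleted construct and 3.82, 3.40 and 3.41 with the shRNA. Its groups overlapped throughout, with fold changes from -0.14 to 0.08. STARD4, a soluble carrier of cholesterol, ranged from 3.70 to 4.16 over the 12 arrays and had fold changes from -0.07 to 0.06.

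**Figure D2:**
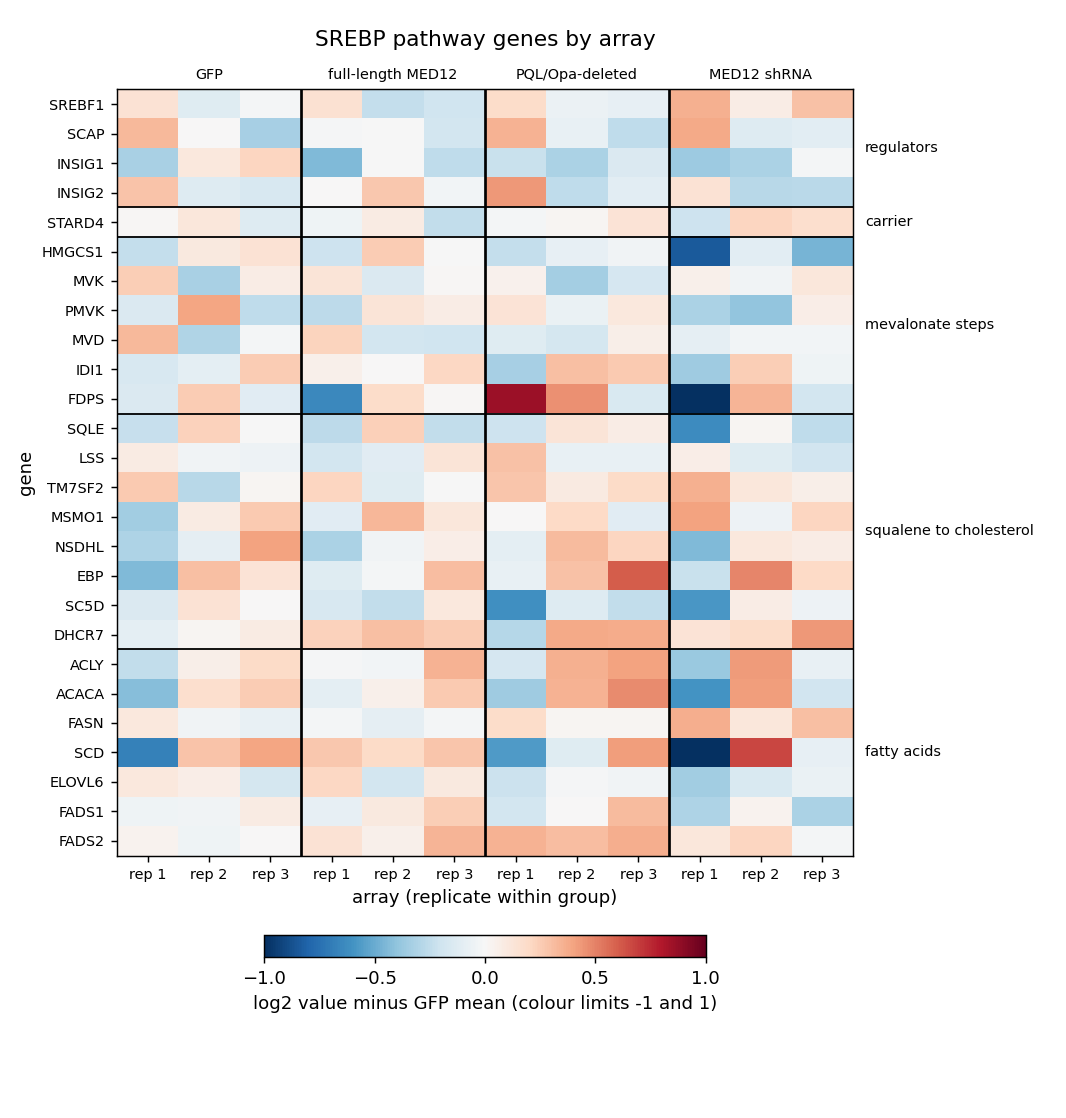
Difference of each log2 value from the GFP mean for the 26 genes (rows, by role) in the 12 arrays (columns, by group and replicate). Red is above and blue below the GFP mean; colours end at -1 and 1, and FDPS and SCD in shRNA replicate 1 lie beyond -1. The column of shRNA replicate 1 holds the deepest blues.

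In the mevalonate steps, which turn acetyl-CoA into the isoprenoid units of sterols, the 6 measured genes had median log2 fold changes of -0.01 with full-length MED12, -0.01 with the PQL/Opa-deleted construct and -0.13 with the shRNA. HMGCS1, the cytosolic HMG-CoA synthase that makes the substrate of the pathway's rate-setting reductase, had the lowest p of all members in the shRNA comparison. It read 5.76, 6.10 and 6.14 with GFP, 5.80, 6.25 and 6.0 with full-length MED12 and 5.76, 5.92 and 5.96 with the PQL/Opa-deleted construct. In the shRNA arrays it read 5.16, 5.89 and 5.53. Replicates 1 and 3 of the shRNA lay below all 9 other arrays, and replicate 2 lay among them. The log2 fold change was -0.47 ± 0.21 (SE; 95% interval -0.92 to -0.02; limma, adjusted p = 0.983), a call at the unadjusted threshold that did not survive adjustment. It was -0.29 without shRNA replicate 1, -0.65 without shRNA replicate 2 and -0.34 after quantile normalization, and it passed an unadjusted 0.05 in 10 of 20 alternatives. With the replicate number as a block the value was the same and the adjusted p was 0.364.

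FDPS, which makes farnesyl diphosphate, varied more between replicates than any other member, with a residual standard deviation of 0.65. It read 4.55, 4.95 and 4.59 with GFP, 4.05, 4.88 and 4.71 with full-length MED12, 5.55, 5.15 and 4.55 with the PQL/Opa-deleted construct and 2.95, 5.03 and 4.51 with the shRNA. A single array, shRNA replicate 1, lay far below the other 11, of which the lowest read 4.05. Its shRNA fold change was -0.53 ± 0.46 (SE) and 0.08 without that array. The kinase MVK, the kinase PMVK, the decarboxylase MVD and the isomerase IDI1 carry mevalonate to isopentenyl and dimethylallyl diphosphate. Their 12 fold changes against GFP lay between -0.22 and 0.09, and their groups overlapped in each.

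From squalene to cholesterol, 8 of 11 listed genes were measured. Their median log2 fold changes were -0.01, 0.10 and 0.04 with full-length MED12, the PQL/Opa-deleted construct and the shRNA. SQLE, the squalene epoxidase and a rate-limiting step, read 4.63, 5.10 and 4.86 with GFP, 4.61, 5.10 and 4.62 with full-length MED12, 4.66, 4.99 and 4.94 with the PQL/Opa-deleted construct and 4.24, 4.88 and 4.61 with the shRNA. Its lowest array was again shRNA replicate 1, with a fold change of -0.29 ± 0.21 (SE) that was -0.12 without it. DHCR7, the reductase of the last step of one branch, read 3.31, 3.42 and 3.48 with GFP, 3.64, 3.70 and 3.66 with full-length MED12, 3.12, 3.79 and 3.78 with the PQL/Opa-deleted construct and 3.54, 3.59 and 3.84 with the shRNA. Each full-length and each shRNA array exceeded the highest GFP array, and the group means differed from GFP by 0.26 ± 0.19 and 0.25 ± 0.19 on the log2 scale (SE; limma, adjusted p = 1.00 each).

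The other 6 enzymes of this stretch did not all lie on one side of GFP in any comparison. SC5D, the lathosterol desaturase, had -0.33 ± 0.21 (SE) with the PQL/Opa-deleted construct, where replicate 1, at 3.16, lay below every other array of the 12. Without that array it was -0.18. EBP, the sterol isomerase, had 0.27 ± 0.26 (SE) with the same construct and was lowest in GFP replicate 1, without which the value was 0.056. The cyclase LSS, the reductase TM7SF2, the methyl oxidase MSMO1 and the dehydrogenase NSDHL had 12 fold changes between -0.09 and 0.19, with overlapping groups in each. With the PQL/Opa-deleted construct these and EBP lay above GFP and SC5D below it, a pattern that was not tested.

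**Figure D3:**
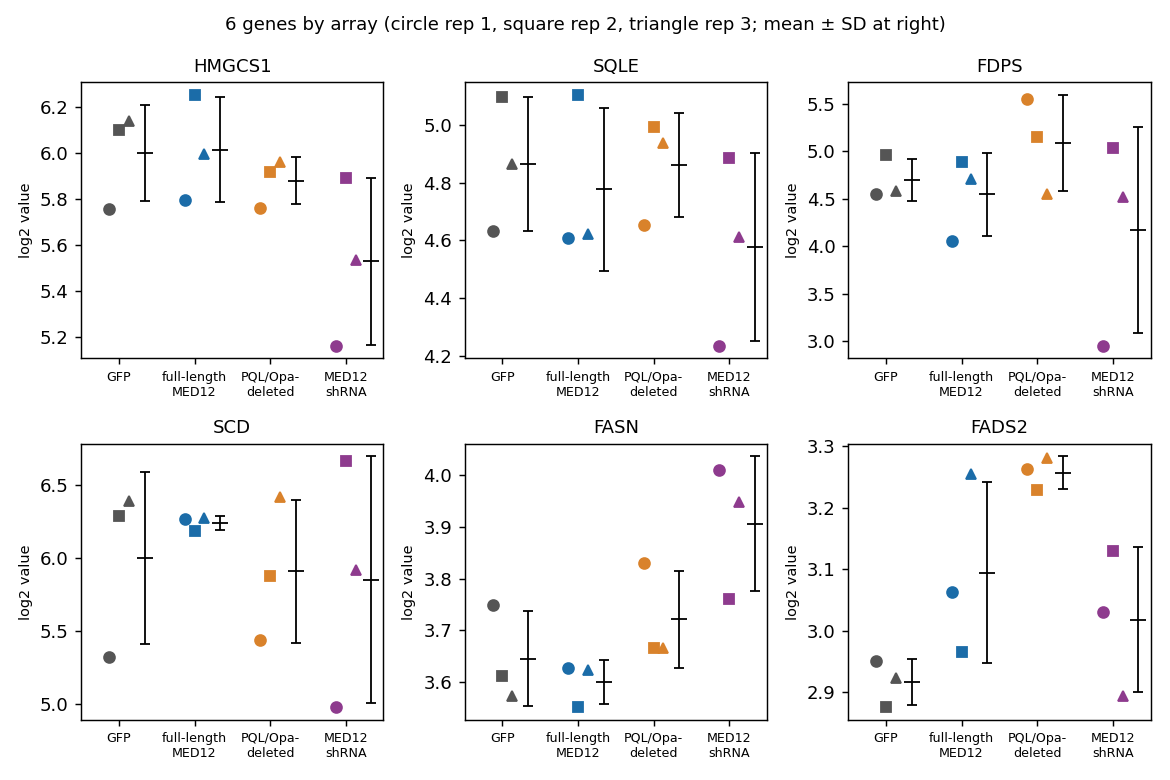
Log2 values of HMGCS1, SQLE, FDPS, SCD, FASN and FADS2 in each of the 12 arrays, by group, with the mean and standard deviation (n = 3) at the right of each group; each panel has its own axis, which does not start at 0. Circles, squares and triangles are replicates 1, 2 and 3. In HMGCS1, SQLE, FDPS and SCD the lowest point is shRNA replicate 1, whereas in FASN that array is the highest.

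Among the 7 genes of fatty acid synthesis and desaturation, 6 lay above GFP with full-length MED12, 5 with the PQL/Opa-deleted construct and 2 with the shRNA, with medians of 0.09, 0.08 and -0.12. FADS2, a desaturase of polyunsaturated fatty acids, had the lowest p with the PQL/Opa-deleted construct. It read 2.95, 2.88 and 2.92 with GFP and 3.26, 3.23 and 3.28 with the construct, so the groups did not overlap. The log2 fold change was 0.34 ± 0.14 (SE; 95% interval 0.04 to 0.64; limma, adjusted p = 1.00). With full-length MED12 it read 3.06, 2.97 and 3.25, also above all GFP arrays, and with the shRNA 3.03, 3.13 and 2.89. It passed an unadjusted 0.05 in 13 of 20 alternatives, and did not when GFP replicate 2 or 3 or any array of the construct was left out. The row is dim, with a mean at percentile 35.5 of all rows, and no detection call says whether it exceeds background. FADS1, the related desaturase, had 0.05 in the same comparison.

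FASN, the fatty acid synthase, read 3.75, 3.61 and 3.57 with GFP and 4.01, 3.76 and 3.95 with the shRNA, groups that did not overlap. The difference of 0.26 ± 0.14 (SE; limma, adjusted p = 0.999) had the opposite sign to that of HMGCS1. It read 3.63, 3.55 and 3.62 with full-length MED12 and 3.83, 3.67 and 3.67 with the PQL/Opa-deleted construct. SCD, the stearoyl-CoA desaturase, read 5.32, 6.29 and 6.39 with GFP, 6.27, 6.19 and 6.27 with full-length MED12, 5.44, 5.88 and 6.42 with the PQL/Opa-deleted construct and 4.98, 6.66 and 5.92 with the shRNA. In 3 of the 4 groups its first replicate was the lowest, and its standard deviation ran from 0.05 with full-length MED12 to 0.84 with the shRNA. Its shRNA fold change was -0.15 ± 0.41 (SE) and 0.29 without shRNA replicate 1. The citrate lyase ACLY, the carboxylase ACACA and the elongase ELOVL6 had fold changes against GFP between -0.19 and 0.20, with overlapping groups.

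Replicates of a group differed, most of all in the brighter genes and in shRNA replicate 1. Whether arrays or groups account for more of the variation was not tested. Of the 26 genes, 9 were lowest in shRNA replicate 1, the array of narrowest spread, where 14.8% of all rows were lowest. Another 5 (SREBF1, SCAP, TM7SF2, MSMO1 and FASN) were highest there, so the array was not low for all members. The share of all rows highest there was not counted. A split by brightness, made after the values were seen, separates 8 genes above the 75th percentile of row means (HMGCS1, IDI1, FDPS, SQLE, EBP, ACLY, SCD and FADS1) from the other 18. For the 8, the mean log2 value minus that of GFP was -0.69, 0.26 and -0.15 in shRNA replicates 1 to 3 and -0.27, 0.14 and 0.14 in GFP replicates 1 to 3. It was -0.13, 0.11 and 0.14 with full-length MED12 and -0.11, 0.17 and 0.24 with the PQL/Opa-deleted construct. The 5 arrays below 0 were the 5 with the smallest spread of all values. Bright rows of any kind tend to read lower where an array's spread is narrow. This match is therefore partly built into the split, and it is not shown to be particular to these genes. They were replicate 1 of every group and replicate 3 of the shRNA, and the labels do not say what a replicate number marks. For the other 18 genes the same score stayed between -0.03 and 0.04 in all 12 arrays. Of the 8 genes, 6 were lowest in shRNA replicate 1, as were 35.5% of all rows above the 75th percentile. After quantile normalization, which gives all arrays one distribution, the score of shRNA replicate 1 was still -0.55 and that of the other 11 arrays lay between -0.13 and 0.15. What set this array apart was not tested.

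**Figure D4:**
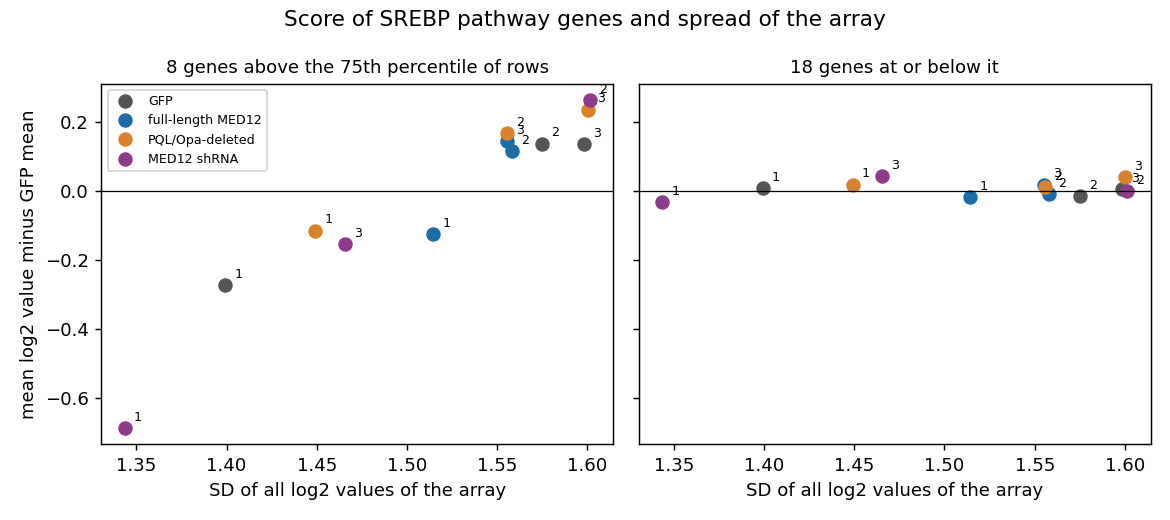
Mean log2 value minus the GFP mean (vertical axis) against the standard deviation of all log2 values of the array (horizontal axis) for 12 arrays, with the replicate number at each point; left, the 8 genes above the 75th percentile of row means, right, the other 18. On the left the points run from -0.69 in the narrowest array to 0.26 in the widest, and on the right they stay near 0. Because the split is by brightness, this contrast is partly built in and is not shown to be particular to these genes.

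The constructs compared with each other differ by the PQL and Opa domains, and their groups differ also in MED12 signal, which was 1.76 higher on the log2 scale with full-length MED12 (limma, adjusted p = 0.0421). The domains and the MED12 signal cannot be told apart here. Whether the MED12 row reads the deleted domains is not shown, so its signal need not give the level of the shortened construct. Full-length MED12 minus the PQL/Opa-deleted construct gave a median log2 fold change of -0.08 over the 26 genes, beside -0.0016 over all rows, with 11 above 0. That median lay above 0 in 2 of 20 alternatives, without full-length replicate 1 (0.00222) and without PQL/Opa deletion replicate 3. The values ran from -0.54 for FDPS to 0.33 for SCD, the genes of widest replicate spread, and the interval stayed within 1 on either side of 0 for the other 24. FASN had groups that did not overlap, at -0.12 ± 0.14 (SE; limma, adjusted p = 1.00).

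Other genes around the pathway were read from 6 further lists, and 0 of their 51 measured genes passed in any comparison with GFP. The proteases, escort partners and ubiquitin ligases that process and turn over SREBP (9 of 12 measured) had medians of 0.18, 0.05 and -0.05 with full-length MED12, the PQL/Opa-deleted construct and the shRNA. In that list SPRING1, a cofactor of the site-1 protease, stood at 0.49 ± 0.26 (SE) and 0.29 ± 0.26 with the constructs, and FBXW7, a ligase subunit for nuclear SREBP, at 0.17 with full-length MED12. The protease gene MBTPS1 stood at 0.16 with the PQL/Opa-deleted construct and 0.32 with the shRNA, and ERLIN2 at 0.30 with the shRNA. Other sterol synthesis genes (6 of 10) had medians of 0.06, 0.04 and -0.09. LBR, the lamin B receptor and a sterol reductase, stood at -0.66 ± 0.26 (SE; limma, adjusted p = 0.982) with the shRNA, where it read 5.24, 5.94 and 5.42 against 5.75, 6.34 and 6.48. The electron carrier CYB5R3 stood at 0.27 and 0.32 with the PQL/Opa-deleted construct and the shRNA, and its counterpart POR at -0.22 with full-length MED12. GGPS1 was at 0.18 with full-length MED12 and ACAT1 at -0.25 with the PQL/Opa-deleted construct.

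Genes of sterol uptake, storage and movement (10 of 14) had medians of 0.10, 0.06 and 0.09. LIPA, the lysosomal acid lipase that frees cholesterol from its esters, read 2.45, 2.53 and 2.75 with GFP and 3.04, 3.38 and 2.96 with the shRNA. The groups did not overlap, at 0.55 ± 0.18 (SE; limma, adjusted p = 0.862), and with full-length MED12 it was at 0.36 ± 0.18 (SE). This row too is dim, with a GFP mean of 2.58. MYLIP, an LXR-induced ligase, was at 0.42 with full-length MED12, SOAT1, which esterifies cholesterol, at 0.23 and NCEH1 at 0.19 with the PQL/Opa-deleted construct, and TMEM97 at 0.42 with the shRNA. In the oxysterol and LXR list (6 of 7) the medians were -0.03, 0.01 and 0.08. CH25H, which makes 25-hydroxycholesterol, a suppressor of SREBP processing that interferon induces, read 2.73, 2.37 and 1.71 with GFP and 2.83, 2.81 and 2.93 with the shRNA. That is 0.58 ± 0.25 (SE; limma, adjusted p = 0.983), from a dim row with a GFP mean of 2.27. The exporters ABCG1 and ABCA1 were at -0.16 and -0.14 with the PQL/Opa-deleted construct, ABCG1 at -0.08 with full-length MED12, and CYP46A1 at 0.20 and 0.21 with full-length MED12 and the shRNA.

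In the list of other fatty acid and lipid genes (14 of 21) the medians were -0.04, 0.02 and 0.01. ELOVL1 was at 0.29 and LPIN1 at -0.20 with full-length MED12, MID1IP1 at -0.51 ± 0.33 (SE) and ELOVL1 at 0.25 with the PQL/Opa-deleted construct, and ACACB at 0.22 and ACSS2 at 0.24 with the shRNA. MID1IP1 read 3.53, 2.31 and 2.09 with GFP and 2.47, 2.03 and 1.89 with the PQL/Opa-deleted construct, so GFP replicate 1 stood above the rest. Among the Mediator subunits and coactivators that act with SREBP (6 of 7) the medians were 0.11, -0.06 and -0.12. CREBBP, an acetyltransferase that SREBP recruits, was at 0.39 ± 0.24 (SE) and 0.37 ± 0.24 with the constructs, and MED15 at 0.11 with full-length MED12. The kinase CDK8 was at -0.26 with the PQL/Opa-deleted construct and -0.33 with the shRNA, and its partner cyclin CCNC at -0.44 ± 0.24 (SE) with the shRNA. Across the 6 lists, 0 genes with either construct and 3 of 51 with the shRNA (LBR, LIPA and CH25H) had an unadjusted p under 0.05. That is 5.88%, beside 5.04% of all rows.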

How the data were processed

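RNA from 12 samples of sorted HEK293 cells was measured on arrays. The deposited values are log2 intensities, 1 per row and array, made with RMA in Partek on build hg18, as listed in the submitters' processing notes. Software versions and filters: not given in the sources used here. They were used as deposited, with 0 value columns left out. Of 22011 rows, 14432 had 1 symbol. Arrays have no read depth, and their number limits the precision: the median SE was 0.20 for the 26 genes. limma 3.58.1 in R 4.3.3 fitted 4 group means to all rows at once (8 residual and 3.52 prior degrees of freedom; two-sided; Benjamini-Hochberg over all rows), and checked on simulated data. With 3 arrays a side, the smallest p of an exact permutation test is 0.1. Where nothing says that replicates came from separate cultures, p-values measure the spread between these samples.

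The members, lists and alternatives were chosen with earlier results of these data known. All members were named; values in every array were given for the regulators and for members with an unadjusted p under 0.05, and for FDPS, SQLE, DHCR7, SCD and FASN after their values were seen; other list genes were named for the 2 lowest p per list and comparison with GFP. Promoters are RefSeq's (GRCh38.p14), another build than hg18. Same-numbered arrays deviated together (correlations from 0.101 to 0.229 between full-length MED12 and GFP, from 0.149 to 0.472 between the PQL/Opa-deleted construct and GFP, not in all pairs for the shRNA), so a replicate block was fitted as an alternative. A sign change of a value that passed in neither fit was counted as moved. Alternatives were other normalizations, array weights, a trend, a filter on dim rows, fits of 2 groups and leaving out arrays.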

Additional observations from a re-analysis of the deposited data

How the results depend on the processing

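Array weights were the 1 setting of 20 that made members pass: with the shRNA 5 of 26 did (SREBF1 at 0.37, HMGCS1 at -0.55, SQLE at -0.41, DHCR7 at 0.39 and FASN at 0.33; limma, adjusted p from 0.00664 to 0.0304), in a fit that called 5702 rows (25.9%) and gave shRNA replicate 3 a weight of 8.77. Under the other settings, 12 fits without 1 array included, 0 members passed in any of the 4 comparisons. With array weights the unadjusted counts of members were 1, 5 and 9 of 26 for the 3 comparisons with GFP, where 9.29%, 13.5% and 40.5% of all rows passed, and the rows called were 6, 20 and, between the constructs, 4. With the replicate number as a block the unadjusted count with the shRNA was 3 (HMGCS1, SQLE and FASN), where 8.97% of all rows passed. Rows called with the block were 4, 2, 18 and 1 in the 4 comparisons, against 3, 1, 15 and 1 without it, and it changed no adjusted call of a member. Quantile normalization gave 2 members at an unadjusted p under 0.05 with the shRNA, where 6.72% of all rows passed. At the adjusted threshold it called 0 members and 23 rows there, and 2 rows between the constructs. For the shRNA, the trend, the fit without the 3 narrow arrays and the fit of 2 groups each gave 0 members at the unadjusted threshold. All rows gave 5.02%, 6.19% and 3.36% in these fits, and the fit of 2 groups called 4 rows. For the PQL/Opa-deleted construct, the latter 2 fits gave 0 members at the unadjusted threshold, where 4.44% and 3.41% of all rows passed. Between the constructs, 0 rows were called with the trend or without the narrow arrays, and 2 without dim rows.

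Leaving out 1 array gave 0 to 1 members at an unadjusted p under 0.05 with the PQL/Opa-deleted construct and 0 to 2 with the shRNA. Of all rows, 2.48% to 4.62% and 3.47% to 9.91% passed in those fits. The 2 members came from the fit without shRNA replicate 2, where 9.91% of all rows passed. Rows called with the shRNA ranged from 5 (without GFP replicate 2) to 20, with 8 without GFP replicate 3, and between the constructs from 0 to 3. The members' median with the shRNA ran from -0.096 to 0.0789, the latter without shRNA replicate 1. Without 1 array, 31, 26, 23 and 22 single-gene values per comparison changed sign, none of which passed in either fit. The mean of all rows of a gene was not run, because each member had 1 row. The rows carry no detection call, so signal over background is unknown.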

Other observations

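Rows annotated to a member and to other genes were left out of the counts above, and no gene can be assigned to them. None passed in any comparison with GFP (limma, over all rows). Row 3060994, which carries CYP51A1 and LRRD1, read 4.05, 4.76 and 4.54 with GFP and 3.89, 3.94 and 3.70 with the shRNA, groups that did not overlap (-0.61 ± 0.22, SE; limma, adjusted p = 0.930). Row 2934131, which carries ACAT2 and SOD2-OT1, stood at -0.36 ± 0.27 (SE) in that comparison. Row 3947123, which carries SREBF2 and MIR33A, read 3.52, 3.43 and 3.63 with GFP and 3.69, 3.80 and 3.87 with the shRNA, also without overlap (0.26 ± 0.15, SE; limma, adjusted p = 0.999). Row 3243262, which carries HSD17B7, its pseudogene and 3 others, had 0.66 ± 0.30 (SE; limma, adjusted p = 0.996) with the shRNA. It read 2.91, 2.96 and 2.88 with GFP and 4.34, 3.17 and 3.22 with the shRNA, again without overlap. Replicate 1 of the shRNA stood above the other 11 arrays, which read 2.84 to 3.60. Of all rows, 8.56% had shRNA and GFP groups that did not overlap.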
